A study of Rattus norvegicus with 29 samples.

Results

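The miR-466 and miR-297 families were followed in plasma small RNA sequencing of 29 rats from 3 study sites, UEF, Monash and UCLA. All rats were adult male Sprague-Dawley rats, and tail vein blood was drawn under isoflurane 48 h after surgery. The operated rats had either severe lateral fluid-percussion injury, a pressure pulse delivered to the exposed dura that produces traumatic brain injury (TBI), or a sham operation with the same surgery and no impact. TBI rats were split by later video-EEG into TBI without epilepsy (TBI-) and TBI with epilepsy (TBI+), a diagnosis made months after the blood sample. UEF gave 4 sham, 4 TBI- and 4 TBI+ rats. Monash gave 3 sham, 3 TBI- and 2 TBI+ rats, and UCLA gave 3 sham, 3 TBI- and 3 TBI+ rats. All tests compared rats, with a single library from each. The members were chosen by name from the 754 miRNAs of the count table, with a limit of 10 names selected on summed counts that was not reached. 7 of 754 miRNAs carried the name miR-466 or miR-297: rno-miR-466b-5p, rno-miR-466b-3p, a joined row for rno-miR-466b-2-3p and rno-miR-466b-4-3p, rno-miR-466c-5p, rno-miR-466c-3p, rno-miR-466d and rno-miR-297. All 7 passed the filter on low counts, as did all 754 miRNAs. The family was picked with the result of miR-466b-5p for the TBI effect by site already known, so that result, and the UEF difference of miR-466b-5p within it, are given as descriptions and support nothing.

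miRNAs are short RNAs cut as a 5p and a 3p arm from a hairpin precursor, and they lower the output of messenger RNAs that pair with their seed, the bases near the 5′ end. miR-466 and miR-297 are rodent miRNAs whose sequences resemble simple repeats of U and G on the 5p arm and of A and C on the 3p arm. In the mouse, relatives of both families belong to a large intronic cluster of Sfmbt2, an imprinted polycomb-group gene known for its expression in placenta. In the rat annotation used here the Mir466 genes also lie within the span of Sfmbt2, while Mir297 lies on another chromosome within the span of the non-coding gene LOC102549836. Plasma carries miRNAs released by blood cells and by organs such as the liver. In such bulk samples fewer cells of a type and less RNA per cell cannot be told apart.

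The mature sequences show how alike the members are, and how their seeds nevertheless differ. They are given 5′ to 3′ from RefSeq (build GRCr8, minus strand in every case) with the seed, bases 2 to 8, in capitals.
miR-466b-5p: uAUGUGUGuguguauguccaug
miR-466c-5p: uGUGAUGUguguauguacaug
miR-466d: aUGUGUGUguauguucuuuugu
miR-297: aUGUAUGUgugcauguaugcaug
miR-466b-3p: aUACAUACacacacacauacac
miR-466b-2-3p: aUAUACAUacacacauacaca
miR-466c-3p: uAUACAUGcacacauacacac
The 5p sequence of miR-466b stands at chr17:72942513-72942534 in Mir466b-2 and, letter for letter, at chr17:72945547-72945568 in Mir466b-1, so counts of this arm cannot be assigned to 1 of the 2 genes. miR-466c-5p stands at chr17:72927649-72927669, miR-466d at chr17:72913060-72913081 and miR-297 at chr10:98715721-98715743. The joined row was matched through miR-466b-2-3p. Its other name, miR-466b-4-3p, had no match in this reference, so the genes given here for miR-466b may be incomplete. The 7 sequences had 7 distinct seeds, and 0 of the other sequenced miRNAs of the table shared one of them. Between members, miR-466b-5p shared an unbroken run of 13 bases with miR-466d and of 11 bases with miR-466c-5p, and miR-466b-3p shared 13 bases with miR-466b-2-3p. A read shortened at either end could therefore be split between members by the counting. A run of at least 8 bases in which U and G, or A and C, alternate stood in 3 of the 7 members (11 bases in miR-466b-5p, 11 in miR-466b-3p and 9 in miR-466d) and in 5 of the 681 miRNAs of the table with a sequence (0.734%).

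All members were scarce in plasma. The 7 together held 0.00694% to 0.0284% of the counts of a rat, which is 104 to 712 counts. miR-466b-5p made up 56.9% of them, with 54 to 531 counts per rat (median 179), and ranked 230 of 754 miRNAs by summed count. miR-466c-5p had 7 to 121 counts (median 42) and made up 12.0%. The 3p members were lower still, with 14 to 105 counts for miR-466b-3p, 9 to 53 for the joined miR-466b-2-3p row and 0 to 96 for miR-466c-3p. miR-297 had 0 to 61 counts and was at 0 in 8 rats. miR-466d had 0 to 80 counts and was at 0 in 11 rats. The spread between rats of a group followed this order in part: the biological coefficient of variation was 0.292 for miR-466b-5p, 0.436 for miR-466c-5p, 1.09 for miR-297 and 1.56 for miR-466d, beside a median of 0.399 over all miRNAs tested. Precision was therefore best for miR-466b-5p and poor for miR-297 and miR-466d.

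Total miRNA counts per rat ranged from 1162307 to 5223469 (median 2713557). The UEF sham libraries stood apart in composition: miR-122-5p, the main miRNA of liver, took 28.1% to 55.1% of their counts, against 1.58% to 22.6% in UEF TBI rats and 0.634% to 12.9% at the other sites. All 3 miRNAs of the liver list were detected in every rat, and their summed share was 30.7% to 57.9% in UEF sham rats and 1.98% to 24.4% in UEF TBI rats. The 5 red cell miRNAs held 6.82% to 19.9% of counts in UEF sham rats and 21.95% to 40.7% in UEF TBI rats. The 4 miRNAs of white cells and platelets held 1.75% to 7.27% and 4.83% to 10.5%. No marker of these lists was at 0 in any rat. The results were also fitted under other scalings, without miR-122-5p, and with the log2 ratio of miR-451-5p to miR-23a-3p, a mark of red cell RNA, in the model. The part of the white cell and platelet list was not tested.

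miR-466b-5p was lower in the plasma of UEF rats with TBI than in that of UEF sham rats. The 4 sham-operated experimental controls had 161, 176, 305 and 142 CPM (counts scaled to a common library size, with TMM factors for composition), and the 8 TBI rats had 58.2 to 115 CPM with a median of 75.7. The highest TBI rat lay below the lowest sham rat, and TBI- and TBI+ rats were mixed within the TBI range. How many of all 754 miRNAs show such a gap was not counted. In raw counts the sham rats had 451, 432, 531 and 345, and the TBI rats 168 to 391, so the groups overlapped before scaling. Means were 196 ± 74.1 CPM in sham (SD, n = 4) and 80.6 ± 20.5 CPM in TBI rats (SD, n = 8). The log2 fold change of TBI against sham was -1.28 (SE 0.24, 95% interval -1.77 to -0.79), with an adjusted p of 7.04e-04 over all 754 miRNAs in edgeR's quasi-likelihood test. These UEF values are part of the result known when the family was picked, so the adjusted p describes them and is not independent evidence. 29 of 754 miRNAs were called at UEF (3.85%), of which 10 were higher and 19 lower in TBI rats.

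**Figure D1:**
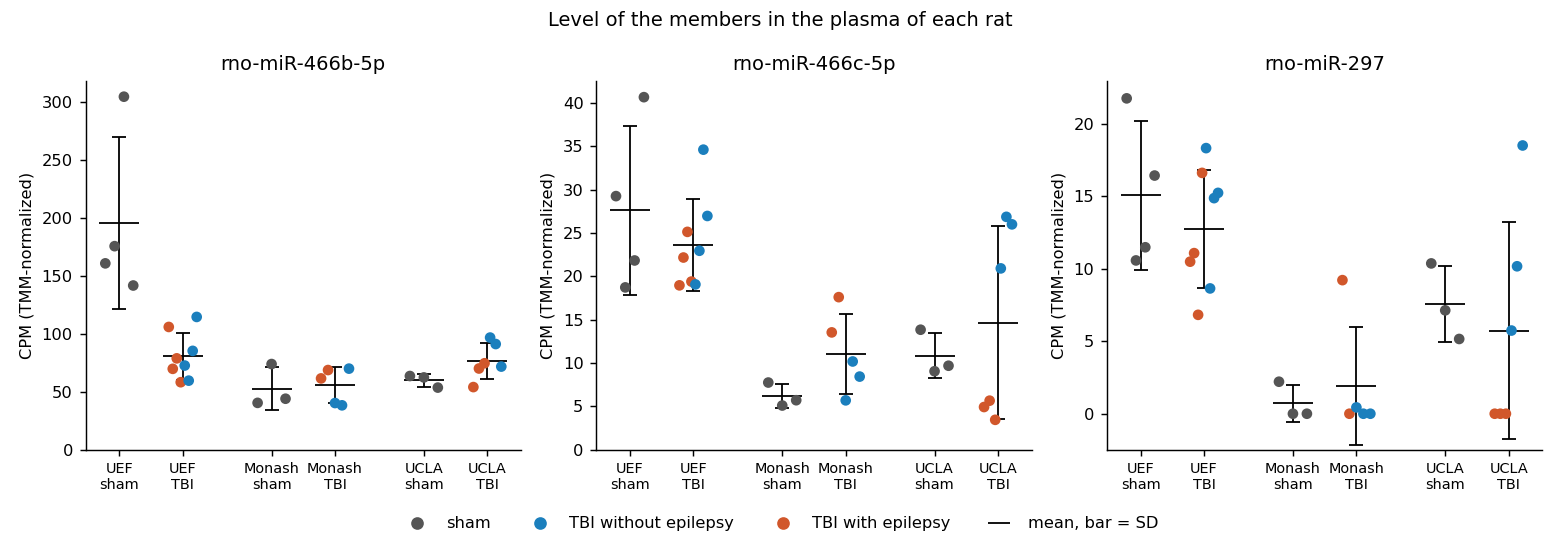
Level of miR-466b-5p, miR-466c-5p and miR-297 in each rat, as CPM with TMM factors (linear vertical axis), by site and injury (horizontal axis). Points are rats coloured by outcome, the line is the group mean and the bar its SD. UEF sham rats stand above UEF TBI rats for miR-466b-5p, and the 3 UCLA rats with TBI+ stand lowest of the UCLA rats for miR-466c-5p and at 0 for miR-297.

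The UEF difference of miR-466b-5p depended on how composition was handled. With total counts and no scaling factor the sham rats had 102 to 166 CPM and the TBI rats 38.3 to 110 CPM, so that 1 sham rat fell within the TBI range, and the log2 fold change was -0.71 (adjusted p = 0.125). That rat, UEF sham 3, had the highest total of all rats, a miR-122-5p share of 55.1% and a TMM factor of 0.333. With miR-122-5p left out and total counts used, a setting chosen after seeing the data, the log2 fold change was -1.29 (adjusted p = 0.00323), close to the value with TMM. Leaving out UEF sham 3 gave -0.94 (adjusted p = 0.0400). With the miR-451-5p to miR-23a-3p ratio in the model it was -1.41 (adjusted p = 0.00359). The call was kept in all 29 fits that left out 1 rat each, with log2 fold changes of -1.41 to -0.94.

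**Figure D2:**
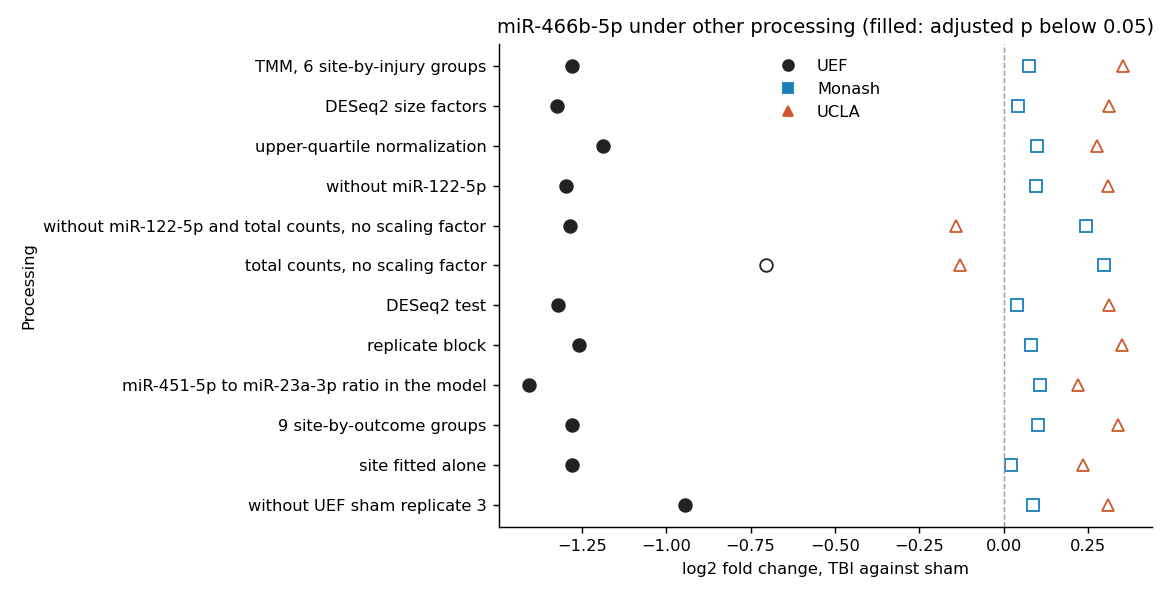
log2 fold change of miR-466b-5p in TBI against sham rats (horizontal axis) at UEF, Monash and UCLA under the processing named on the vertical axis. Filled symbols have an adjusted p below 0.05. The UEF value stays below 0 in each row and is open only for total counts without a scaling factor, while Monash and UCLA values lie near 0 and are open throughout.

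A measure that needs no scaling compares both arms of miR-466b within a library. miR-466b-5p was divided by the sum of miR-466b-3p and the joined miR-466b-2-3p row. The ratio was 7.64, 10.5, 8.30 and 6.27 in the 4 UEF sham rats, and 1.63 to 5.52 in the 8 UEF TBI rats with a median of 4.61. The UEF groups did not overlap in this ratio, which shares its numerator with the difference above and is given without a test. At Monash sham rats had ratios of 1.49 to 2.96 and TBI rats of 1.61 to 4.97, and at UCLA 2.98 to 5.65 and 2.00 to 4.98, with overlap at both sites. A second ratio within the library, miR-466b-5p to miR-466c-5p, was 3.48 to 14.0 in UEF sham and 2.46 to 5.59 in UEF TBI rats, and these ranges overlapped.

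**Figure D3:**
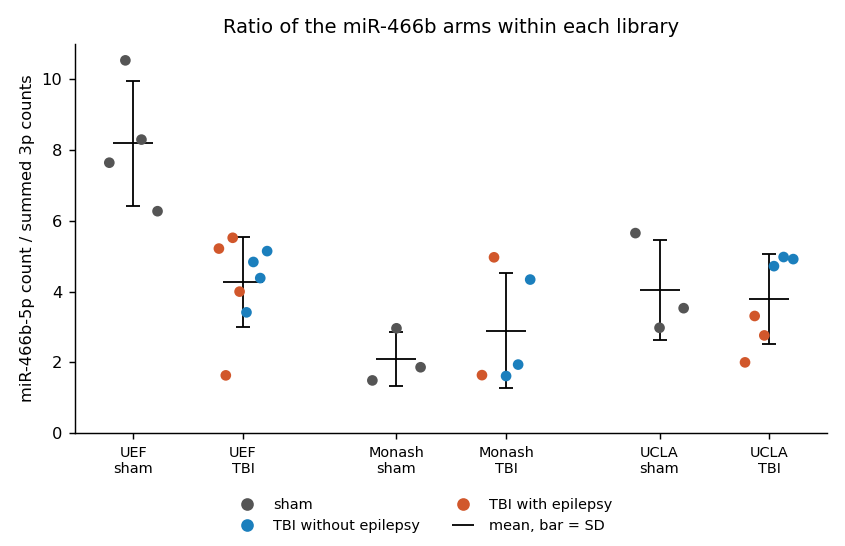
Count of miR-466b-5p divided by the summed counts of its 3p members in each library (vertical axis, no unit), by site and injury (horizontal axis). Points are rats coloured by outcome, the line is the mean and the bar the SD. UEF sham rats lie at 6.27 or above, and all UEF TBI rats lie at 5.52 or below.

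The 3p products of the same hairpins gave no call at UEF. miR-466b-3p was 11.6 ± 2.04 CPM in sham and 12.5 ± 6.78 CPM in TBI rats, which is a difference of 0.11 log2 units (SE 0.35, adjusted p = 0.936). The joined miR-466b-2-3p row was 12.7 ± 7.26 and 8.41 ± 3.84 CPM, a log2 fold change of -0.57 (SE 0.41, adjusted p = 0.596). miR-466c-5p stood at 29.3, 18.7, 21.8 and 40.7 CPM in the UEF sham rats and at 19.0 to 34.6 CPM in the TBI rats, with a log2 fold change of -0.22 (SE 0.39, adjusted p = 0.880). The ranges of miR-466c-5p overlapped almost fully. miR-297 was 10.6 to 21.8 CPM in sham and 6.82 to 18.3 CPM in TBI rats (log2 fold change -0.24, SE 0.87, adjusted p = 0.946). miR-466d was at 0 in 2 of 4 sham rats and in 0 of 8 TBI rats, with 2 to 67 counts in the latter, and its interval of -1.53 to 3.59 covered changes in both directions. 1 of 7 members was thus called at UEF, and the median log2 fold change of the 7 was -0.22 beside 0.01 over all 754 miRNAs.

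At Monash no member differed between TBI and sham rats beyond the spread. miR-466b-5p was 40.3, 73.9 and 43.9 CPM in the 3 sham rats and 40.2, 38.2, 69.9, 61.5 and 68.7 CPM in the 5 TBI rats. The TBI values lay almost within the sham range, with a log2 fold change of 0.07 (SE 0.30, 95% interval -0.55 to 0.69, adjusted p = 0.995). miR-466c-5p was 7.73, 5.08 and 5.69 CPM in sham rats and 5.68 to 17.6 CPM in TBI rats, which is a difference of 0.83 log2 units (SE 0.54, adjusted p = 0.838). miR-297 was at 0 in 2 of 3 sham and 3 of 5 TBI rats, and its interval of -2.24 to 4.30 allows no statement on direction. 0 of 7 members were called, as were 0 of 754 miRNAs (0.0%) in edgeR, with 57 at an unadjusted p under 0.05 and 5 called by DESeq2. In simulated data with these Monash rats, 13.5% of miRNAs changed 2-fold were recovered and 91.0% of those changed 4-fold. These rates are over all simulated miRNAs and were not measured for the members. They need not hold for miR-297 and miR-466d, whose biological coefficients of variation were 1.09 and 1.56 beside a median of 0.399.

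At UCLA the members likewise gave no call, and miR-466b-5p did not fall. The 3 sham rats had 63.5, 62.3 and 53.5 CPM and the 6 TBI rats 54.0 to 96.8 CPM (median 73.1), with overlap at the lower end. The log2 fold change was 0.35 (SE 0.29, 95% interval -0.25 to 0.95, adjusted p = 0.633), and it turned to -0.13 (adjusted p = 0.859) with total counts. miR-466c-3p was at 0 in UCLA sham 1 and UCLA sham 2, had 24 counts in UCLA sham 3 and 15 to 34 counts in the 6 TBI rats. Its log2 fold change of 1.80 (SE 0.70) had an adjusted p of 0.344, and an exact permutation p of 0.0476 over 84 regroupings that was not adjusted. Without UCLA sham 3, when both remaining sham rats are at 0, the adjusted p was 2.40e-04. miR-466b-3p was 6.05, 9.51 and 6.13 CPM in sham and 8.14 to 15.4 CPM in TBI rats (log2 fold change 0.75, SE 0.43, adjusted p = 0.508, exact permutation p = 0.0357 not adjusted over the 21 such tests). miR-466c-5p had a log2 fold change of 0.43 (SE 0.48, adjusted p = 0.745). Its TBI group pooled TBI- rats at 20.9 to 26.9 CPM with TBI+ rats at 3.43 to 5.64 CPM, above and below sham at 9.04 to 13.8 CPM. The log2 fold change was -0.38 for miR-297 (SE 1.05, adjusted p = 0.923) and -2.24 for miR-466d (SE 1.48, adjusted p = 0.543). 0 of 7 members were called beside 2 of 754 miRNAs (0.265%), with 85 at an unadjusted p under 0.05. The self-test recovered 16.0% of simulated 2-fold and 93.5% of 4-fold changes with these UCLA rats, again over all simulated miRNAs and not for the members.

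**Figure D4:**
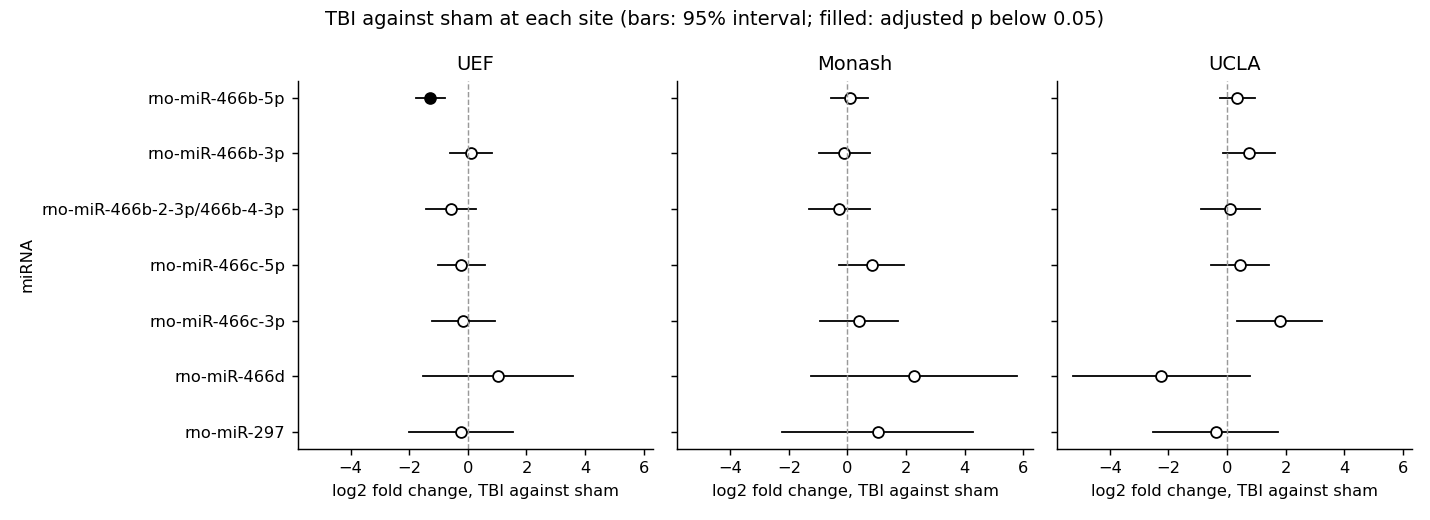
log2 fold change of TBI against sham (horizontal axis) for the 7 members (vertical axis) in 1 panel per site. Points are edgeR estimates, bars their 95% intervals, and filled points have an adjusted p below 0.05. miR-466b-5p at UEF is the only filled point, and the bars of miR-466d and miR-297 are the widest.

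The site dependence of the TBI effect was the result known when the family was picked. The test of different TBI effects at the 3 sites gave miR-466b-5p an adjusted p of 0.0456, rank 4 of 754, where 8 miRNAs were called (1.06%). This call was lost in 22 of 29 fits without 1 rat, with adjusted p of 0.0226 to 0.345, the highest without UEF sham 3. It was also lost under other scalings and models, among them DESeq2 size factors (adjusted p = 0.0501) and total counts (0.320). The other 6 members had adjusted p of 0.412 to 0.878. Over all sites together miR-466b-5p had a log2 fold change of -0.46 (SE 0.21, adjusted p = 0.395), and 0 of 7 members were called beside 9 of 754 miRNAs (1.19%).

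The level of some members also differed between the sites. 3 of 7 members differed between the 3 sites, beside 111 of 754 miRNAs (14.7%): miR-466c-5p (adjusted p = 0.00271), miR-466b-5p (0.0119) and miR-297 (0.0196). The other 4, the 3p members and miR-466d, had adjusted p of 0.325 to 0.914. miR-466c-5p was 25.0 ± 6.91 CPM at UEF (SD, n = 12), 9.23 ± 4.38 CPM at Monash (n = 8) and 13.4 ± 9.09 CPM at UCLA (n = 9). UEF rats had 18.7 to 40.7 CPM, above all 8 Monash rats at 5.08 to 17.6 CPM, while UCLA rats at 3.43 to 26.9 CPM overlapped both. How many of the 754 miRNAs separate UEF from Monash in this way was not counted. The UEF minus Monash difference was 1.42 log2 units (SE 0.32, adjusted p = 0.0102) and UEF minus UCLA was 1.02 (SE 0.30, adjusted p = 0.0253), where 9.68% and 9.42% of all miRNAs were called. miR-466b-5p was 119 ± 70.6, 54.6 ± 15.3 and 70.8 ± 15.05 CPM at the 3 sites in the same order. It differed between UEF and Monash (1.04 log2 units, SE 0.25, adjusted p = 0.0134), but UEF and UCLA were not separated (0.63, SE 0.24, adjusted p = 0.103). The UEF mean pools sham rats at 196 CPM with TBI rats at 80.6 CPM. At Monash and UCLA sham rats had 52.7 and 59.8 CPM, and TBI rats 55.7 and 76.4 CPM. The UEF sham values of miR-466b-5p belong to the result known when the family was picked, so its site call is not independent evidence. miR-297 differed between UEF and Monash (3.24 log2 units, SE 0.85, adjusted p = 0.0182), and UEF minus UCLA was 1.21 (SE 0.69, adjusted p = 0.341). Between Monash and UCLA 0 of 7 members were called, beside 5.44% of all miRNAs. With total counts and no scaling factor the site calls of miR-297 (adjusted p = 0.0840) and miR-466c-5p (0.0701) were lost. Animals, surgery and sample handling all differed with site and cannot be told apart. For miR-297 the low counts also followed the column order of the deposited table, described below. miR-466c-5p had 7 to 42 counts in columns 14 to 23 of that table and 19 to 121 in the others, with overlap. The part of the column order in the site calls of miR-297 and miR-466c-5p was not tested.

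miR-297 was either present at 14 counts or more or nearly absent. All 12 UEF rats had 20 to 61 counts. At Monash 5 of 8 rats had 0 counts, 2 had 1 and 4, and the rat Monash TBI+ 1 had 15. At UCLA the 3 sham rats had 24, 15 and 16 counts, the 3 TBI- rats 14, 25 and 47, and all 3 TBI+ rats 0. A count of 0 in these 8 libraries allows up to 0.754 to 2.58 CPM (3 counts of the total, counting error only). Total counts were 2198033 to 3976506 in the UCLA TBI+ rats and 2163966 to 2903673 in the UCLA TBI- rats. With TMM factors the UCLA TBI+ libraries came to 2853774, 2127729 and 2333595 counts and the UCLA TBI- libraries to 2438804, 2456946 and 2538892. The part of depth in the counts of 0 was not tested.

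The epilepsy comparison of the members was fitted over all sites and then within each site. Whether it differed between sites was not tested. With site held in the model, TBI+ against TBI- gave 0 of 7 calls and 0 of 754 (0.0%) in edgeR, with 17 at an unadjusted p under 0.05 and 0 by DESeq2. miR-466c-5p had a log2 fold change of -0.56 (SE 0.31, adjusted p = 0.998) and miR-297 of -0.49 (SE 0.80, adjusted p = 0.998). A fit within each site, added after the values were seen, gave 0 of 754 calls at UEF (0.0%; 17 at an unadjusted p under 0.05), 62 at Monash (8.22%) and 50 at UCLA (6.63%). At Monash 50 were higher and 12 lower in TBI+ rats, and at UCLA 7 were higher and 43 lower. The Monash count fell to 17 without Monash TBI+ 2, and the UCLA count fell to 17 with total counts.

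At UCLA miR-466c-5p had 14, 12 and 8 counts in the TBI+ rats, 51, 66 and 66 in the TBI- rats and 32, 19 and 30 in the sham rats. The 3 UCLA groups did not overlap, with TBI+ lowest and TBI- highest. The share of all miRNAs that separate these groups was not counted. TBI+ against TBI- was -2.39 log2 units (SE 0.36, adjusted p = 5.42e-05) and ranged from -2.75 to -2.25 under 16 alternatives, with adjusted p of 4.10e-05 to 0.0100. miR-297 was called lower in UCLA TBI+ than TBI- rats in the fit of the counts as they stand, with 0 in each TBI+ rat (adjusted p = 0.00111). With each UCLA TBI+ library set at a floor of 3 counts it was at least 9.19-fold lower, a bound given without a test. The other 5 members were not called there, and miR-466b-5p was 66.2 ± 10.8 CPM in TBI+ and 86.5 ± 13.2 CPM in TBI- rats (log2 fold change -0.39, SE 0.33, adjusted p = 0.521). At Monash, with 2 TBI+ rats, miR-297 was called in the other direction (adjusted p = 0.0347) on the 15 counts of Monash TBI+ 1, and without that rat the call was lost (adjusted p = 0.747). For miR-466c-5p the Monash estimate also went the other way, without a call. It was 13.5 and 17.6 CPM in the 2 TBI+ rats and 5.68 to 10.2 CPM in the TBI- rats (log2 fold change 0.94, SE 0.38, adjusted p = 0.143). At UEF miR-466c-5p was 21.4 ± 2.86 CPM in TBI+ and 25.9 ± 6.65 CPM in TBI- rats (log2 fold change -0.28, SE 0.28, adjusted p = 0.999).

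These rats were also neighbours in the deposited table. In its column order the 10 rats with fewer than 10 counts of miR-297 were the 10 consecutive columns 14 to 23, which hold 7 of the 8 Monash rats and the 3 UCLA TBI+ rats. The 19 rats in columns 1 to 13 and 24 to 29 had 14 to 61 counts. What the column order stands for is not given in the sources used here. Its part in the UCLA differences and in the site calls of miR-297 and miR-466c-5p was not tested. The log2 ratio of miR-451-5p to miR-23a-3p was -2.37 to -1.68 in UCLA TBI+ and -2.38 to -1.06 in UCLA TBI- rats, and its ranges overlapped.

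**Figure D5:**
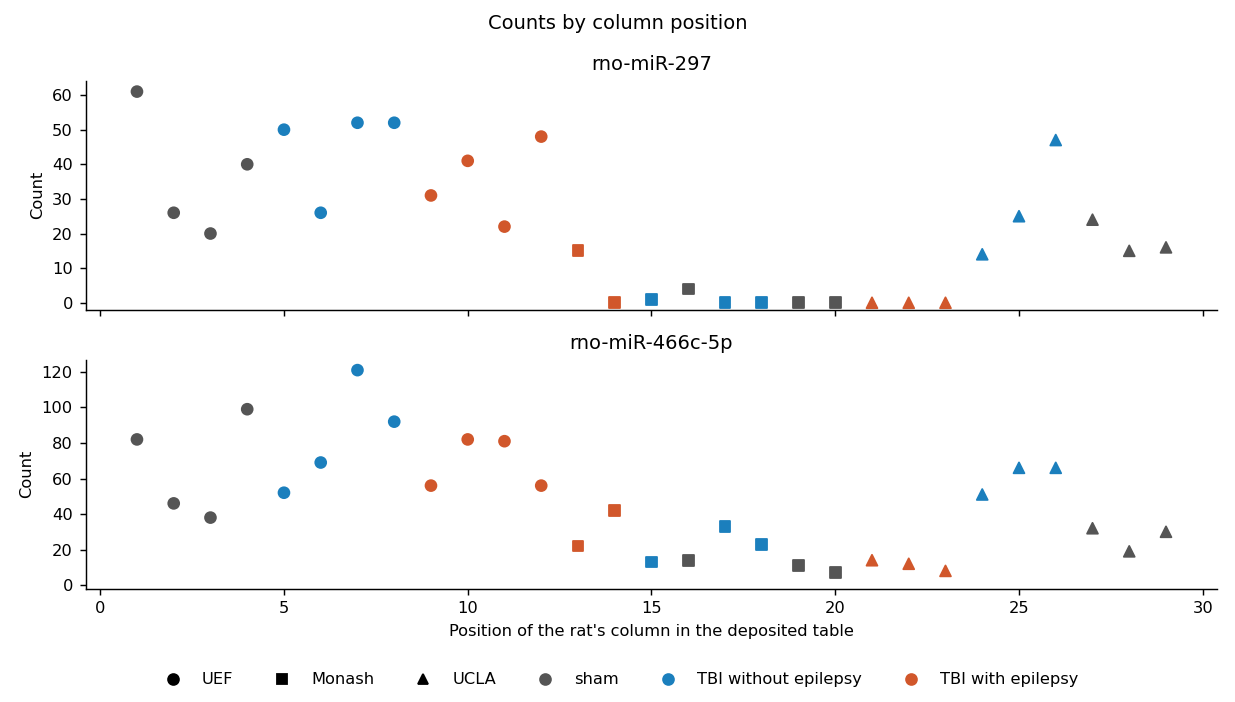
Raw counts of miR-297 (upper panel) and miR-466c-5p (lower panel) on the vertical axis against the position of each rat's column in the deposited table on the horizontal axis. Shapes are sites and colours outcomes. miR-297 lies at 0 to 4 counts in columns 14 to 23 and at 14 to 61 counts in all others.

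Among all miRNAs the closest companions of miR-297 over the 29 rats were miR-879-5p, miR-6326 and miR-466c-5p, with Spearman correlations of log2 CPM of 0.82, 0.81 and 0.80. Those of miR-466c-5p were miR-708-3p (0.81), miR-297 (0.80) and miR-879-5p (0.76). These rats share sites and table position, so the correlations are descriptions. miR-708-3p had 132 to 387 counts at UEF, 127 to 208 in UCLA sham, 244 to 329 in UCLA TBI- and 17 to 30 in UCLA TBI+ rats. At Monash it had 16 to 32 counts in sham, 25 to 47 in TBI- and 115 to 304 in TBI+ rats. miR-6326 had 47 to 84 counts in UCLA TBI- and 9 to 13 in UCLA TBI+ rats, and miR-879-5p 121 to 202 and 45 to 56. These miRNAs outside the family were also lowest at UCLA in the TBI+ rats. They were picked by correlation over the same 29 rats, so this follows in part from the choice and is no separate evidence.

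miR-466b-5p followed other miRNAs, with miR-505-3p (0.67), miR-339-3p (0.65) and let-7i-3p (0.64) nearest to it. Its own 3p row, miR-466b-3p, correlated with it at 0.04 over the 29 rats, and miR-466c-5p with miR-466c-3p at 0.08. The nearest to miR-466d were miR-382-3p (0.77), miR-126b (0.72) and miR-186-3p (0.67), and to miR-466c-3p miR-130a-3p (0.69), miR-214-3p (0.67) and miR-22-5p (0.65). miR-466b-3p was nearest to miR-423-5p (0.52), miR-92b-3p (0.49) and miR-1188-3p (0.48), and the joined miR-466b-2-3p row to miR-582-3p (0.56), miR-146a-5p (0.54) and miR-3557-3p (0.53). In sparse counts correlations of this size are weak.

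The 2 other miRNAs of the table with an alternating run of at least 8 bases gave no call by injury, with wide errors for miR-32-3p. They are shown for comparison with the members, again with the seed in capitals.
miR-32-3p: gCAAUUUAgugugugugauauu
miR-672-5p: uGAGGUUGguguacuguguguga
miR-672-5p, with 21 to 139 counts per rat, had log2 fold changes of TBI against sham of 0.22 (SE 0.34) at UEF, 0.37 (SE 0.41) at Monash and -0.60 (SE 0.38) at UCLA, and the lowest adjusted p of the 3 was 0.516. miR-32-3p, with 0 to 136 counts, had 1.42 (SE 1.40), 1.12 (SE 1.70) and 1.29 (SE 1.63), none called. 0 of 2 were called in any of the 7 comparisons fitted across all 29 rats.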

How the data were processed

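The authors deposited raw counts per miRNA as whole numbers. Per the labels and the paper's methods, plasma RNA (miRNeasy serum/plasma kit) was made into QIAseq miRNA libraries, sequenced on an Illumina NextSeq, trimmed with cutadapt, mapped with Bowtie to Rnor_6.0 and annotated with miRBase. By its label the deposited table holds raw read counts. How molecular identifiers entered them is not stated. Versions of cutadapt and Bowtie are not given in the sources used here.

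All 754 miRNAs were fitted in edgeR 4.0.16 under R 4.3.3 with limma 3.58.1 (low counts filtered by filterByExpr at 10, TMM factors, quasi-likelihood F test, Benjamini-Hochberg over 754, threshold 0.05). TBI against sham within a site and the TBI effect by site came from 6 site-by-injury groups. Site, pooled TBI and epilepsy effects came from site plus 3 conditions. log2 CPM used a prior count of 2. Totals were 1162307 to 5223469 counts per rat, and common variation was 0.463. The labels number the rats within each group but do not tie numbers to a batch. Replicates are separate rats. Sequences came from RefSeq (GRCr8), names matched by symbol.

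Members and lists were chosen with earlier results of these data known. Named are the members, the 3 miRNAs most alike to each, miRNAs with alternating runs, and library marks. Alternatives were other scalings (DESeq2 1.42.0 size factors, upper quartile, total counts), filters, DESeq2, a replicate block, a red cell ratio, 9 groups, single sites, miR-122-5p left out, and each rat left out. Scripts were tested on simulated data, where 42.0% of 2-fold and 95.5% of 4-fold changes were recovered at UEF, over all simulated miRNAs. Figures used matplotlib 3.10.9.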

Additional observations from a re-analysis of the deposited data

Results flagged for a closer look

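miR-466b-5p had a TBI effect that differed between the 3 sites by the test of the difference itself (adjusted p = 0.0456), with log2 fold changes of -1.28 at UEF, 0.07 at Monash and 0.35 at UCLA. This result was known when the family was picked. The call was lost in 22 of 29 fits without 1 rat, with the highest adjusted p without UEF sham 3 (0.345). It was also lost under other scalings and models.

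miR-297 in the rat Monash TBI+ 1 stood apart from the other 4 Monash TBI rats, with 15 counts against 0, 0, 0 and 1. Its gap on the log2 CPM scale was 0.825 of the range of the group, above the limit of 0.710 for 5 samples. This rat is column 13 of the deposited table, just before the 10 columns with fewer than 10 counts. The reason was not tested.

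miR-466b-3p in the rat UEF TBI+ 2 had 105 counts against 25 to 40 in the other 7 UEF TBI rats, with a gap of 0.533 of the range against a limit of 0.526 for 8 samples. Without this rat the log2 fold change of miR-466b-3p at UEF went from 0.11 to -0.18. 42 member-by-group sets were examined in this way and 2 stood out, where chance marks about 1 in 20.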

How the results depend on the processing

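All values are log2 fold changes or adjusted p unless given as miRNAs called (threshold 0.05). Over the 7 main comparisons and the alternatives that did not leave out single rats, 519 member values kept direction and call, 11 lost a call and 23 changed sign. The other 2 passed the threshold only in the exact permutation test, whose p is not adjusted (miR-466b-3p 0.0357 and miR-466c-3p 0.0476 at UCLA). Causes were not tested. With DESeq2 size factors 4 miRNAs were called at UCLA and 2 for the TBI effect by site, where miR-466b-5p had 0.0501. With upper-quartile scaling that test called 5 (miR-466b-5p 0.0845), and miR-466c-3p by epilepsy was -0.00044. With total counts 46 were called at UEF, 9 at UCLA and 15 for the effect by site (miR-466b-5p 0.320). There miR-466b-5p was -0.71 at UEF, -0.13 at UCLA and 0.0052 by epilepsy, and miR-297 was 0.17 at UEF and 0.0498 over all sites. The joined miR-466b-2-3p row was 0.0145 at UEF and -0.50 at UCLA, miR-466c-3p 0.22 and miR-466c-5p 0.0757 at UEF, and miR-466b-3p 0.0073 at Monash. The site tests of miR-297 and miR-466c-5p gave 0.0840 and 0.0701. When every rat had to reach 10 counts, 3 were called for the effect by site (miR-466b-5p 0.0782) and 17 over all sites. DESeq2 itself called 51 at UEF, 5 at Monash, 7 at UCLA, 17 for the effect by site and 24 over all sites. With the miR-451-5p to miR-23a-3p ratio in the model 0 were called for the effect by site (miR-466b-5p 0.0538) and 4 over all sites, and miR-297 was 0.31 at UEF, 0.17 at UCLA and 0.42 over all sites. With 9 groups 11 were called at UCLA and 21 for the effect by site, and miR-466c-5p at UCLA was -0.0165. With each site fitted alone 16 were called at UEF and 0 at UCLA, and the joined miR-466b-2-3p row at UCLA was -0.0153. In the exact permutation test miR-466b-3p at UEF was -0.0024.

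With the replicate number as a block, 0 miRNAs were called for the effect by site (miR-466b-5p 0.0823) and 4 over all sites. The numbers did not pair the rats: over 28 pairs of same-numbered rats 7 correlations were over 0.1, with a range of -0.417 to 0.395.

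The next settings were chosen after seeing the data. Without the 3 UCLA TBI+ rats 0 were called for the effect by site (miR-466b-5p 0.138) and 20 over all sites, miR-297 was 0.61 at UCLA and 0.34 over all sites, and the joined miR-466b-2-3p row was -0.42 at UCLA. Without miR-122-5p and with total counts 10 were called at UCLA, 1 for the effect by site (miR-466b-5p 0.148) and 22 over all sites. There miR-466b-3p was -0.0162 at UEF, the joined miR-466b-2-3p row -0.51 and miR-466b-5p -0.14 at UCLA, and miR-466c-3p by epilepsy -0.0266.

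Leaving out each rat in turn gave 14 (without UEF sham 3) to 56 (without UEF sham 1) calls at UEF, 0 to 4 at Monash, 1 to 6 at UCLA, 0 (without UEF sham 3) to 11 for the effect by site and 1 (without UEF sham 4) to 16 over all sites. miR-466b-5p had 0.0226 to 0.345 for the effect by site, -0.0882 to 0.42 at Monash and -0.17 to 0.0046 by epilepsy. miR-297 was -2.51 to 5.11 at Monash, -0.33 to 0.11 at UEF and -0.70 to 0.0130 over all sites. The joined miR-466b-2-3p row was -0.18 to 0.37 at UCLA. miR-466b-3p was -0.47 to 0.15 at Monash and -0.18 to 0.27 at UEF. miR-466c-3p was -0.10 to 0.61 at Monash and -0.11 to 0.20 by epilepsy, and miR-466c-5p -0.32 to 0.0228 at UEF. miR-466d was -0.58 to 7.29 at Monash, -0.61 to 0.64 over all sites and -1.05 to 0.76 by epilepsy. miR-297 by epilepsy at Monash was -1.84 (without Monash TBI+ 1) to 6.5 (without Monash TBI- 1). At these depths miR-297 was at 0 counts in 8 rats and miR-466d in 11, which limits what their fold changes can show.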
